A study of Mus musculus with 72 samples.

Results

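The genes described here are 33 markers of macrophages in mouse liver, taken by symbol and not by their measured values. All 33 were found among the 50307 genes of the count table, and all 33 were among the 14954 genes with enough counts to be tested. By role they fall into 7 genes of resident Kupffer cells (Clec4f, Vsig4, Timd4, Marco, Cd5l, Folr2 and Cd163), 3 genes of complement C1q (C1qa, C1qb and C1qc), 9 general macrophage genes (Cd68, Adgre1, Csf1r, Lyz2, Mpeg1, Slc11a1, Ctss, Tyrobp and Fcer1g), 10 genes of lipid-associated macrophages (Trem2, Gpnmb, Spp1, Cd9, Cd63, Lgals3, Fabp5, Mmp12, Itgax and Clec7a) and 4 genes of monocytes recruited from blood (Cx3cr1, Ccr2, Itgam and Ly6c2).

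Liver RNA came from female and male mice of the inbred strains C57BL/6J and DBA/2J, with 6 libraries in each of 12 groups of strain, sex and diet. Every group ate a Western diet, which held a control, a low or a high amount of the amino acid isoleucine, for 12 weeks and was fasted for 16 h before the liver was taken. The age field of the labels gives 18 weeks for every group. The labels' strain field spells the first strain C56BL/6J, and the age at the start of the diet is 6 weeks in the design text and 18 weeks in the treatment text. The labels do not say that each library came from its own animal. The p-values therefore reflect only how far libraries of the same group lay apart, estimated over all 12 groups together. That spread may include technical variation. Library totals lay between 12958975 and 51125371 counts. Libraries are numbered 1 to 6 within a group as names only. C57BL/6J female control library 4 stood apart in that it held 0.568 CPM (counts scaled to 1000000 per library) of the Y-linked gene Ddx3y, which was at 0 in every other female library and between 15.7 and 50.4 CPM in the male libraries. Several values that turn on that library are given with and without it.

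Kupffer cells are the macrophages that live in the blood sinusoids of the liver, where they take up particles, bacteria and worn-out red cells. In a fatty liver, monocytes enter from the blood, and some of the macrophages that form around lipid-laden hepatocytes switch on a lipid-handling set of genes that includes Trem2, Gpnmb, Spp1 and Cd9. Several of these are not restricted to macrophages: cholangiocytes make Spp1 and Cd9, and Cd63 and Fabp5 are made by many cells. The transcription factor PU.1, encoded by Spi1, binds purine-rich sites at many macrophage genes.

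Promoters are shown for members of 3 roles whose level differed between diets in the mean. RefSeq promoter windows on GRCm38.p6, of 300 bases each from 250 before to 50 after a start site, held 33 entries for 28 of the members. The PU.1-type letters GAGGAAGT, read on both strands, were present in 6 entries of 5 members (C1qc, Ctss, Mmp12, Spp1 and 2 overlapping entries of Ly6c2), and in 3.20% of all 32851 windows. Mmp12 and Spp1 each have another entry, at a different start site, without these letters. The lysosomal E-box TCACGTGA was in 0 entries of the members and in 0.974% of all windows. A match is a description of the letters and not a measured binding site. Windows of 3 members with the PU.1-type letters follow 5′ to 3′ along the gene's strand, with the motif in capitals in the orientation in which it was found, one from each of the C1q, general macrophage and lipid-associated roles. They lie at chr4:136892865-136893164 (minus strand) for C1qc, chr3:95526536-95526835 (plus strand) for Ctss and chr9:7344147-7344446 (plus strand) for Mmp12.
C1qc: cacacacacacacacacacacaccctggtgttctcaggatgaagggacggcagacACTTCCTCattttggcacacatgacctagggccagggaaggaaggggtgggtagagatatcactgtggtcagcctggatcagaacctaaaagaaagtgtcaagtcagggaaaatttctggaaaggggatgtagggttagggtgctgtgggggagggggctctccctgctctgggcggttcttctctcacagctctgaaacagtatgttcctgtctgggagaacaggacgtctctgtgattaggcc
Ctss: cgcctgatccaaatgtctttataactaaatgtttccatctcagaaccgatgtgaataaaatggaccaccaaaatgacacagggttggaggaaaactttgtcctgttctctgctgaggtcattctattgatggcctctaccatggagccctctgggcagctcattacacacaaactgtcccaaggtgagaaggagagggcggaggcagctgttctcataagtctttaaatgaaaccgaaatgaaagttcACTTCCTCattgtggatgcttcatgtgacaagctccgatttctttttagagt
Mmp12: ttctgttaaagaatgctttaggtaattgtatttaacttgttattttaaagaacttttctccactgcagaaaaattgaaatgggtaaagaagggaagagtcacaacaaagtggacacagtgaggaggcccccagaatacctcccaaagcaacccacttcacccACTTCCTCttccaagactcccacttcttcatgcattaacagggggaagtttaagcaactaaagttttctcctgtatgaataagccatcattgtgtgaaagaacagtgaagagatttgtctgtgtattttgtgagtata

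The members differed widely in level. Per length of exon, averaged over the 72 libraries, Cd5l, a secreted scavenger protein of Kupffer cells, was highest with 40.7 CPM per kb. C1qb and C1qa, chains of the complement starter C1q, followed with 39.5 and 35.5 CPM per kb, and Lyz2, the macrophage lysozyme, with 33 CPM per kb. Clec4f, a lectin specific to mouse Kupffer cells, was at 27.8 CPM per kb. At the other end lay Trem2, a lipid-sensing receptor, with 0.181, Mmp12, the macrophage elastase, with 0.148, and Gpnmb, a lysosomal membrane glycoprotein, with 0.133 CPM per kb. The 4 recruited monocyte genes lay between 0.194 and 0.219 CPM per kb. The exon lengths behind these values are unions over all annotated transcripts of a gene.

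The summed level of the 33 genes followed strain, sex and diet. On the control diet the lowest, median and highest library held 749, 865 and 1604 CPM in C57BL/6J females, 475, 632 and 749 CPM in C57BL/6J males, 404, 529 and 711 CPM in DBA/2J females, and 330, 487 and 555 CPM in DBA/2J males. On the low isoleucine diet they held 492, 609 and 711 CPM in C57BL/6J females and 263, 363 and 473 CPM in C57BL/6J males. In C57BL/6J mice of both sexes the low and control libraries therefore did not overlap in the sum. In DBA/2J mice they did, with 382, 428 and 694 CPM in females and 382, 502 and 518 CPM in males on low isoleucine. Libraries 2 and 6 of the C57BL/6J female controls held 1360 and 1604 CPM, well above the other 4. In whole liver, fewer macrophages and less RNA of these genes per macrophage cannot be told apart.

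**Figure D1:**
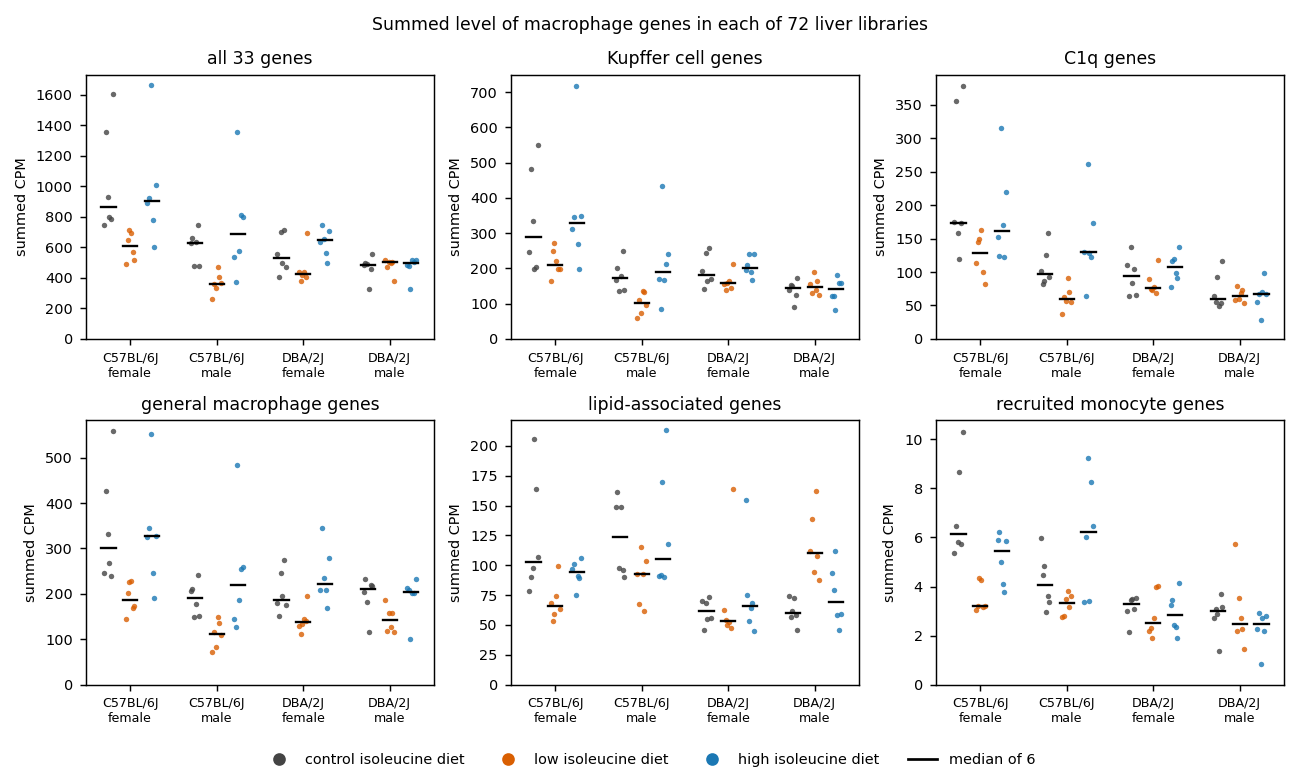
Summed CPM of all 33 macrophage genes and of each of 5 roles (vertical axes) in every library, by strain and sex (horizontal axis) and diet (colour); points are libraries and bars are medians of 6. The C57BL/6J control libraries (749 to 1604 CPM in females, 475 to 749 CPM in males, all 33 genes) sit above the low isoleucine libraries of the same sex (492 to 711 CPM and 263 to 473 CPM).

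Low isoleucine was first compared with control as the mean effect over the 4 strain-sex classes, with 24 libraries per diet. Of the 33 genes 24 fell and 1 rose, beside 20.0% of all tested genes that fell and 17.8% that rose (edgeR's quasi-likelihood test, Benjamini-Hochberg adjusted p under 0.05). The median log2 fold change of the 33 was -0.45, and that of all tested genes was 0.00. Fewer calls were made when the pairs of libraries that carry the same number in their titles were entered as a block, with 12 falls and 1 rise (limma voom). By that setting 29.7% of all tested genes were called in either direction. The labels do not say what a shared number means.

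All 9 general macrophage genes fell. Mpeg1, which encodes the pore-forming perforin-2 (chr19:12460779-12465283, plus strand), had the lowest adjusted p of all members (8.8e-08 by edgeR) at -0.82 ± 0.12 (SE) on the log2 scale. Lyz2 (chr10:117277331-117282321, minus strand) fell by 0.66 ± 0.15 and Cd68, a lysosomal membrane protein, by 0.62 ± 0.14 on the log2 scale. The other 6 had log2 fold changes between -0.41 and -0.51. They were Adgre1, which encodes the surface marker F4/80, Csf1r, the receptor of the macrophage growth factor, the metal transporter Slc11a1, the protease Ctss, and the signalling adaptors Tyrobp and Fcer1g. The call of Adgre1 was lost in 2 of 48 fits that left out a library. Lyz2 has a close copy, Lyz1, so reads of the pair could have been split in counting.

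The 3 C1q genes, neighbours on chromosome 4 between 136880129 (C1qb) and 136898803 (C1qa), fell by close amounts, with log2 fold changes of -0.45 (C1qa), -0.53 (C1qb) and -0.47 (C1qc). Of the 7 Kupffer cell genes 4 fell. These were Clec4f (-0.39 ± 0.09), Cd5l (-0.50 ± 0.15), the complement receptor Vsig4 (-0.36 ± 0.14) and the folate receptor Folr2 (-0.65 ± 0.24). The calls of Vsig4 and Folr2 were lost in 4 and 1 of 48 fits that left out a library. The phosphatidylserine receptor Timd4 and the scavenger receptor Marco were both at -0.37 and did not pass the threshold (adjusted p = 0.11 and 0.43 by edgeR). Cd163, the receptor that takes up haptoglobin-bound haemoglobin, was the only member that rose (0.48 ± 0.17, adjusted p = 0.022 by edgeR).

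Among the 10 lipid-associated genes 6 fell. Mmp12 had the largest log2 fold change of any member, -1.46 ± 0.34, and Trem2 followed with -0.72 ± 0.22. The integrin subunit Itgax was at -0.61, the beta-glucan receptor Clec7a at -0.50, the galectin Lgals3 at -0.39 and the secreted phosphoprotein Spp1 at -0.35. The call of Spp1 was lost in 7 of 48 fits that left out a library, among them that without C57BL/6J female control library 4. Those of Lgals3 and Itgax were lost in 5 and 3 of 48. Gpnmb (-0.77), the tetraspanins Cd9 (0.07) and Cd63 (-0.11), and the fatty acid binding protein Fabp5 (0.11) did not pass the threshold in the mean. Of the recruited monocyte genes the chemokine receptors Cx3cr1 (-0.61 ± 0.16) and Ccr2 (-0.45 ± 0.14) fell, while Ly6c2 (-0.50) and the integrin subunit Itgam (-0.08) did not pass the threshold. Itgam shares 3450 exon bases on the same strand with the overlapping gene Gm49368, and Ly6c2 has the close copy Ly6c1, so both are less certain.

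By class, the falls were called mostly in C57BL/6J mice. In C57BL/6J females 24 members fell and none rose, beside 11.3% of all tested genes that fell and 9.53% that rose, and the median log2 fold change of the members was -0.83. In C57BL/6J males 7 members fell and none rose, beside 3.26% and 1.74% of all tested genes, with a median of -0.76. In DBA/2J females 1 member fell, beside 6.66% of all tested genes that fell and 5.11% that rose, with a median of -0.26. In DBA/2J males 1 fell and 2 rose, beside 10.2% and 7.48% of all tested genes, with a median of 0.07. Without C57BL/6J female control library 6 the female count went from 24 to 11. It was 16 when only that class was fitted, beside 21.5% of all genes tested in that fit. In C57BL/6J males the count moved between 1 (without low library 1) and 11 (without low library 4) as single libraries were left out. The male count was 0 when only that class was fitted, beside 2.47% of all genes tested in that fit. With the title number as a block (limma voom) the counts were 11 in C57BL/6J females, 0 in C57BL/6J males, 0 in DBA/2J females and 3 in DBA/2J males. Of all tested genes 12.6%, 1.63%, 5.60% and 11.2% were called by that setting, in the same order. At an unadjusted p under 0.05, 24 members were lower in C57BL/6J males and 1 in DBA/2J females. The share of all tested genes at that unadjusted p was not counted.

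**Figure D2:**
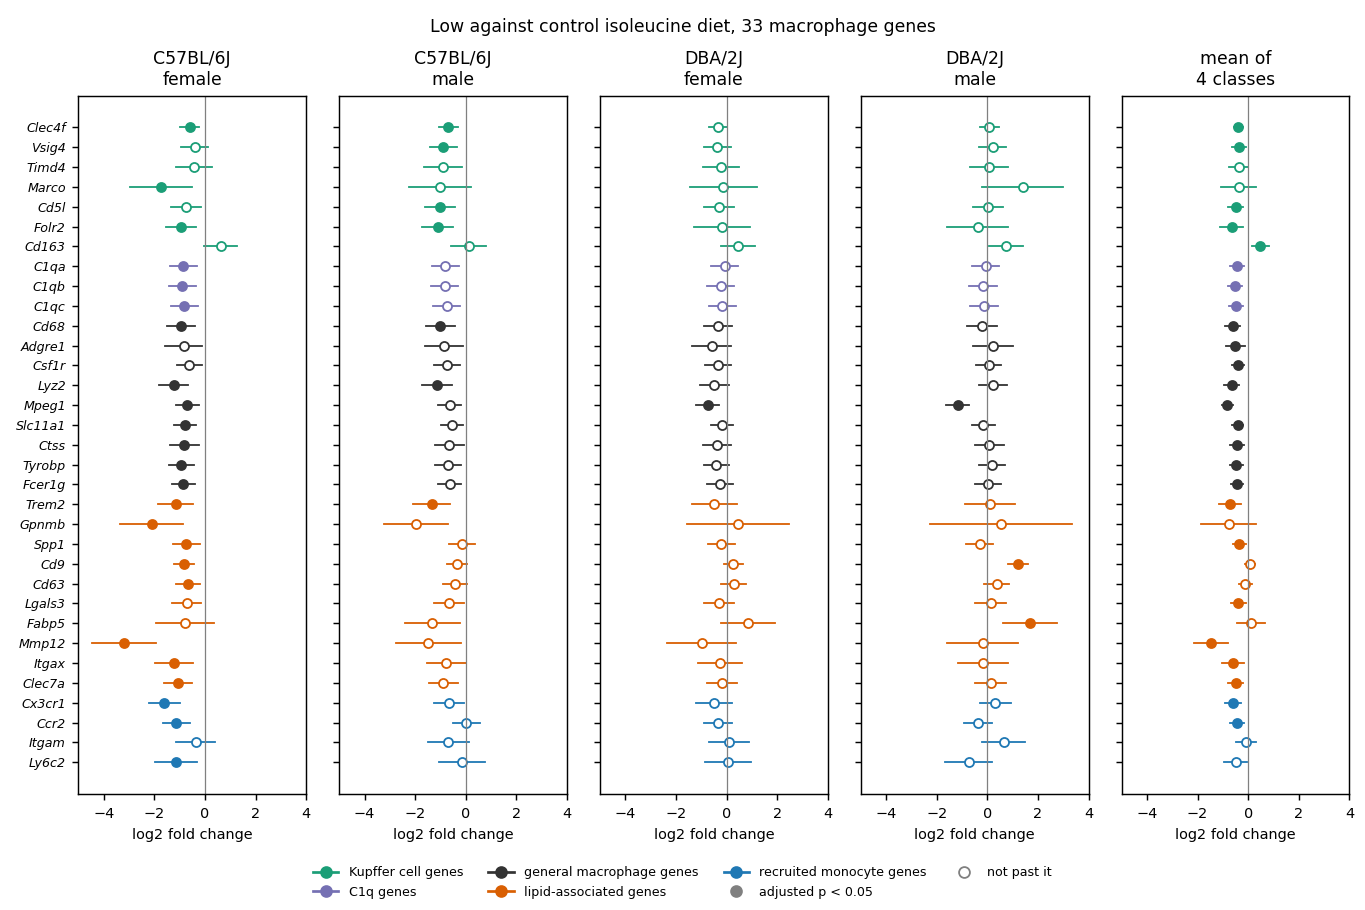
Log2 fold change of low isoleucine against control (horizontal axes) for each of the 33 genes (vertical axis), in the 4 strain-sex classes and as their mean; lines are 95% confidence intervals, filled points passed the adjusted p threshold and colour gives the role. In C57BL/6J females 24 genes lie to the left of 0 with filled points, and in DBA/2J males the filled points are Mpeg1 on the left and Cd9 and Fabp5 on the right.

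The values behind these folds were as follows for the general macrophage genes. In C57BL/6J females Lyz2 was at 64.1, 76.8 and 156 CPM (lowest, median, highest) on control and at 24.3, 34.8 and 52.5 CPM on low isoleucine, a log2 fold change of -1.23 ± 0.29. Males of that strain were at 33.2, 41.8 and 64.1 CPM on control and at 12.6, 21.6 and 28.1 CPM on low isoleucine, a change of -1.13 ± 0.29. The diets did not overlap in either sex of C57BL/6J. In DBA/2J females Lyz2 lay at 23.3, 39.7 and 52.2 CPM on control and 21.0, 26 and 39.1 CPM on low isoleucine, and in DBA/2J males at 12.1, 29.5 and 39.6 against 23.0, 29.1 and 58.1 CPM. Those libraries overlapped, and the log2 fold changes of -0.49 and 0.22 did not pass the threshold. Ctss went from a median of 41.9 to 30.2 CPM in C57BL/6J females, from 23.6 to 14.3 CPM in C57BL/6J males, from 24.0 to 17.6 CPM in DBA/2J females and from 16.6 to 17.1 CPM in DBA/2J males, and it passed the threshold in C57BL/6J females alone (-0.81 ± 0.29). That call of Ctss was lost in 6 of 12 fits that left out a library, without control library 2 or 6 or low library 1, 3, 5 or 6 (highest adjusted p = 0.16 by edgeR).

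Mpeg1 differed from the other members in DBA/2J mice. It was at 56.7, 73.1 and 102 CPM in DBA/2J female controls and at 35.5, 43.9 and 49.3 CPM on low isoleucine, a log2 fold change of -0.75 ± 0.23 (adjusted p = 0.025 by edgeR). In DBA/2J males it was at 71.5, 110 and 128 CPM on control and at 36.2, 48.7 and 54.3 CPM on low isoleucine, a change of -1.18 ± 0.23 (adjusted p = 0.00016 by edgeR). The diets did not overlap in either sex, and Mpeg1 was the single member called lower there. Its call in DBA/2J females was lost without control library 5 or low library 2, and when libraries of 1 title number were summed (adjusted p = 0.073 by edgeR), while the call in males was kept in all 13 fits that left out a library. In C57BL/6J mice Mpeg1 was at 66.8 against 45.5 CPM (medians, females, -0.70) and 47.1 against 35.6 CPM (males, -0.63, adjusted p = 0.11 by edgeR). The difference of its low isoleucine effect between the strains did not pass the threshold (-0.30 ± 0.23, adjusted p = 0.59 by edgeR).

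Clec4f, of the Kupffer cell genes, was at 59.5, 114 and 170 CPM in C57BL/6J female controls and at 61.9, 77.9 and 87.9 CPM on low isoleucine (-0.61 ± 0.18). Males of that strain were at 50.1, 61.7 and 82.1 CPM and at 27.8, 38.2 and 51.9 CPM (-0.69 ± 0.18). In both sexes the highest low libraries lay above the lowest control library. Its call was lost in 2 of 12 fits that left out a library in females (control library 2 or 6) and in 3 of 13 in males (control library 5, low library 1 or low library 3). In DBA/2J females Clec4f had medians of 61.5 and 49.1 CPM, and in DBA/2J males of 55.2 and 54.1 CPM, with no call. Marco, a scavenger receptor for bacteria, was called lower in C57BL/6J females (-1.74 ± 0.63), where control library 6 held 81.3 CPM, and its log2 fold change was -0.69 and not past the threshold without that library. That call of Marco was lost in 5 of 12 fits that left out a library, without control library 6 or low library 1, 4, 5 or 6. Cd5l went from 110 to 81.9 CPM (medians) in C57BL/6J females, which did not pass the threshold (adjusted p = 0.071 by edgeR), and from 72.8 to 34.1 CPM in C57BL/6J males (-1.02 ± 0.30, adjusted p = 0.035 by edgeR). The male call of Cd5l was lost in 7 of 13 fits that left out a library, without low library 1, 2, 3 or 6 or control library 2, 4 or 5 (highest adjusted p = 0.11 by edgeR).

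C1qb was at 50.2, 66.8 and 149 CPM in C57BL/6J female controls and at 33.4, 47.9 and 62.7 CPM on low isoleucine, a log2 fold change of -0.89 ± 0.27. C1qc was at 32.3, 45.2 and 97.5 CPM and at 21.4, 36 and 43.4 CPM in the same groups, a change of -0.81 ± 0.27. Both calls were lost without control library 2 or 6, where the log2 fold changes were -0.72 and -0.68 for C1qb and -0.63 and -0.61 for C1qc, and that of C1qc also without low library 5 or 6. Medians in C57BL/6J males were 39.0 and 21.9 CPM for C1qb and 26.2 and 17.5 CPM for C1qc, with log2 fold changes of -0.84 and -0.76 that did not pass the threshold (adjusted p = 0.059 and 0.095 by edgeR). In DBA/2J mice the medians of C1qb went from 36.3 to 28.6 CPM in females and from 22.3 to 25.6 CPM in males.

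Of the lipid-associated genes, Mmp12 showed the widest gap. In C57BL/6J females it was at 1.22, 1.48 and 11.8 CPM on control and at 0.0791, 0.337 and 0.583 CPM on low isoleucine, without overlap. Its log2 fold change was -3.20 ± 0.65, and -2.08 without control library 4, which held the 11.8 CPM; the call was kept in all 12 fits that left out a library. Trem2 was at 0.784, 2.09 and 5.18 CPM on control and at 0.740, 0.898 and 2.10 CPM on low isoleucine in the same class (-1.16 ± 0.35). The log2 fold change of Trem2 was -0.79 without control library 4 and no longer passed the threshold. Gpnmb rested on that library still more: library 4 held 13.7 CPM where the other 5 lay between 0.291 and 1.70 CPM, and the log2 fold change of -2.10 became -0.33 without it. Among C57BL/6J males a single control library, number 1, was the highest in Mmp12 (4.13 CPM), Trem2 (4.35 CPM) and Gpnmb (8.34 CPM). Trem2 was called lower there as well (-1.35 ± 0.37), and without that library its log2 fold change was -0.75 and no longer passed the threshold. The male call of Trem2 was lost in 4 of 13 fits that left out a library, without control library 1 or low library 1, 2 or 5.

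The high libraries of the Kupffer cell and lipid-associated genes were not the same ones in C57BL/6J female controls. Libraries 2 and 6 were highest in the summed Kupffer cell genes, with 481 and 550 CPM where the other 4 lay between 199 and 334 CPM. Libraries 4 and 5 were highest in the summed lipid-associated genes, with 206 and 164 CPM where the other 4 lay between 78.2 and 107 CPM. Library 4 was the lowest of the 6 in Kupffer cell genes (199 CPM).

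Of the 4 recruited monocyte genes 3 were called lower in C57BL/6J females, Cx3cr1, Ccr2 and Ly6c2. The call of Ly6c2 (-1.14 ± 0.42) was lost in 7 of 12 fits that left out a library (control libraries 1 and 6 and low libraries 1 to 5), with a log2 fold change of -0.39 without control library 6. Cx3cr1, the fractalkine receptor, was at 0.824, 1.73 and 3.07 CPM on control and at 0.356, 0.543 and 0.906 CPM on low isoleucine (-1.61 ± 0.31, adjusted p = 0.00013 by edgeR). Ccr2, the receptor that draws monocytes out of the marrow, was at 1.59, 2.20 and 3.74 CPM and at 0.782, 1.16 and 1.38 CPM, without overlap (-1.13 ± 0.26). In C57BL/6J males Ccr2 was at medians of 1.15 and 1.36 CPM, and Cx3cr1 at 0.984 and 0.777 CPM, with no call. In DBA/2J mice the medians of Cx3cr1 were 0.469 and 0.269 CPM in females and 0.761 and 0.897 CPM in males, and those of Ccr2 were 0.958 and 0.807 CPM in females and 1.01 and 0.720 CPM in males. None of these 4 DBA/2J differences passed the threshold.

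**Figure D3:**
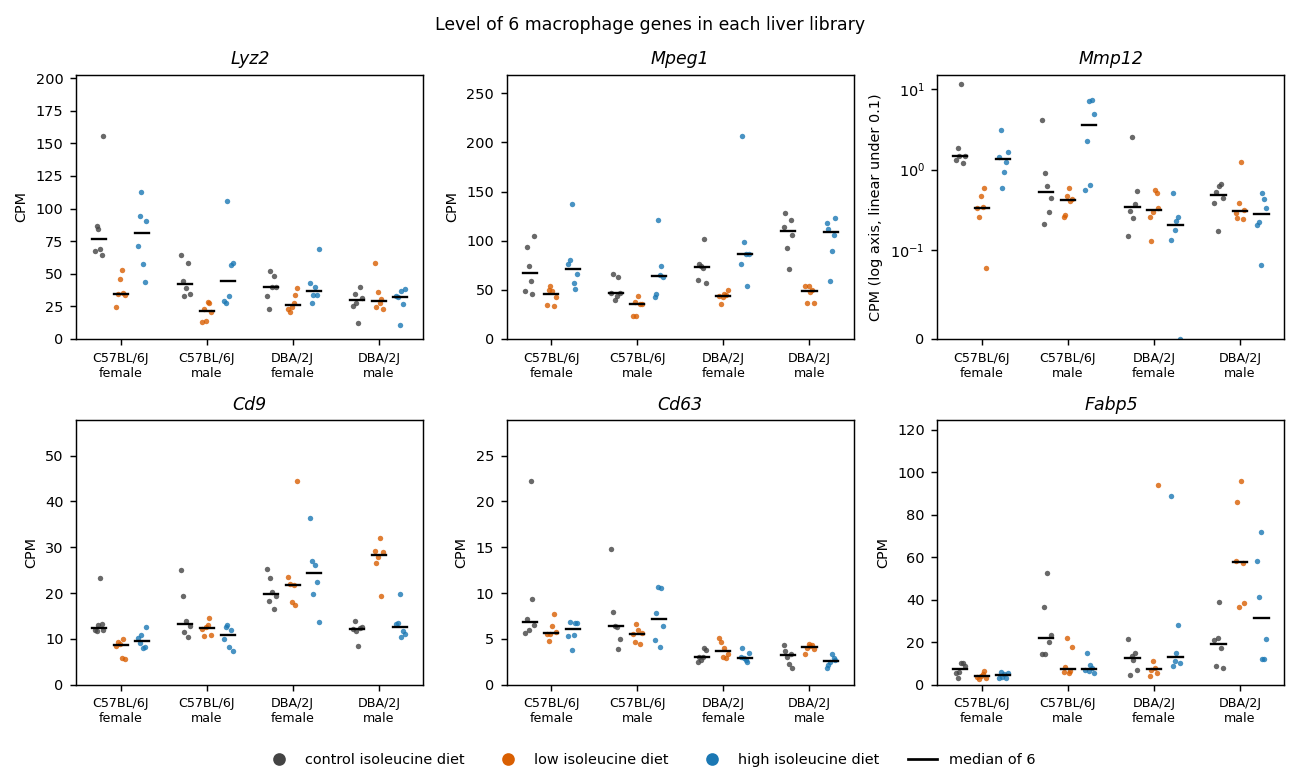
Level in CPM (vertical axes; log axis for Mmp12, linear near 0) of 6 macrophage genes in each library, by strain and sex (horizontal axis) and diet (colour), with medians of 6 as bars. Lyz2 falls without overlap in both sexes of C57BL/6J, Mpeg1 in both sexes of DBA/2J, and Cd9 in DBA/2J males lies higher on low isoleucine (19.4 to 32.1 CPM) than on control (8.44 to 13.8 CPM).

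The effect of low isoleucine differed between the strains for 4 members, all less negative or more positive in DBA/2J, beside 0.716% of all tested genes with a positive and 0.675% with a negative difference past the threshold. They were Cd9 (1.31 ± 0.20 on the log2 scale, adjusted p = 6.3e-05 by edgeR), Fabp5 (2.32 ± 0.56, adjusted p = 0.021), Lyz2 (1.05 ± 0.29, adjusted p = 0.047) and Cd63 (0.88 ± 0.25, adjusted p = 0.048). The difference was positive for 32 of the 33 members, with a median of 0.69 where that of all tested genes was 0.00. At an unadjusted p under 0.05 there were 23 members, with the share of all tested genes not counted. Cd9 kept its call in all 48 fits that left out a library. Fabp5 lost it without DBA/2J female low library 6 (1.51, adjusted p = 0.099 by edgeR). Lyz2 and Cd63 lost theirs without many single libraries, among them C57BL/6J female control library 6 for Lyz2 (0.93) and library 4 for Cd63 (0.65). The count of 4 fell to 1 with the title number as a block and with libraries of 1 title number summed. Of all tested genes 0.0669% and 0.0986% were called by those settings.

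Cd9, a tetraspanin of the cell surface, moved in opposite directions. In C57BL/6J females it was at 11.7, 12.4 and 23.4 CPM on control and at 5.50, 8.64 and 9.90 CPM on low isoleucine, a log2 fold change of -0.83 ± 0.20. In DBA/2J males it was at 8.44, 12.2 and 13.8 CPM on control and at 19.4, 28.3 and 32.1 CPM on low isoleucine, a change of 1.20 ± 0.20 (adjusted p = 9.7e-06 by edgeR). The diets did not overlap in either class. In C57BL/6J males the medians were 13.4 and 12.4 CPM and in DBA/2J females 19.8 and 21.8 CPM, with no call. The effect of low isoleucine on Cd9 also differed between the sexes (male minus female 0.71 ± 0.20, adjusted p = 0.020 by edgeR), the single member of 33 to do so, beside 3.03% of all tested genes with a positive and 3.65% with a negative difference. That difference did not pass the threshold with the title number as a block (adjusted p = 0.076, limma voom) or with libraries of 1 title number summed (adjusted p = 0.12, edgeR). Exons of Cd9 overlap those of Gm26728 on the other strand by 218 bases.

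Fabp5, which carries fatty acids in the cell, was at 7.68, 19.1 and 39.1 CPM in DBA/2J male controls and at 36.7, 57.7 and 95.8 CPM on low isoleucine, a log2 fold change of 1.69 ± 0.55 (adjusted p = 0.024 by edgeR). The diets overlapped through control library 4, which held the 39.1 CPM. The call of Fabp5 was lost without control library 2, control library 6 or low library 4 (highest adjusted p = 0.063 by edgeR). The order was the other way round in C57BL/6J males, with 14.3, 21.8 and 52.8 CPM on control and 5.48, 7.40 and 22.0 CPM on low isoleucine, which did not pass the threshold (-1.32 ± 0.55). In DBA/2J females the medians were 12.6 and 7.32 CPM, while low library 6 held 94.2 CPM. Fabp5 has processed copies elsewhere in the genome, so its counts are less certain. Cd63, a tetraspanin of late endosomes, was at medians of 6.85 and 5.64 CPM in C57BL/6J females, 6.36 and 5.57 CPM in C57BL/6J males, 3.01 and 3.67 CPM in DBA/2J females and 3.21 and 4.08 CPM in DBA/2J males. It was called lower in C57BL/6J females (-0.68 ± 0.24), where control library 4 held 22.2 CPM, and the log2 fold change was -0.22 without that library. That call of Cd63 was lost in 5 of 12 fits that left out a library, without control library 4 or low library 1, 2, 3 or 6.

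Cholangiocyte markers were read beside Cd9 because bile duct cells also make it. In DBA/2J males the summed level of the 8 listed cholangiocyte genes lay between 329 and 456 CPM on control and between 279 and 363 CPM on low isoleucine. Over the 72 libraries Krt18, Krt8 and Tm4sf4 had the highest medians of the list (154, 115 and 47.6 CPM), so the sum mostly reflects them. The defining keratin Krt19 had a median of 1.25 CPM and was at 0 in none. Of the 7 listed genes that could be tested 1 fell and none rose with low isoleucine in DBA/2J males. Of these 7 genes 4 had log2 fold changes above 0 and 3 below 0, with a median of 0.03. The part of other cell types in the rise of Cd9 was not tested.

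Markers of other liver cells were read beside the macrophage genes, without a test of the difference between lists. In the mean of the 4 classes, 6 of 9 endothelial genes rose with low isoleucine and none fell (median 0.31), and 5 of 10 hepatocyte genes rose and none fell (median 0.10). Of 10 stellate cell genes 3 fell and none rose, namely the collagens Col3a1 (-0.65), Col1a1 (-0.82) and Col1a2 (-0.38). Of the lymphocyte genes 1 of 10 for T and natural killer cells (Cd4, -0.91) and 1 of 6 for B cells (Jchain, -0.86) fell. Of the dendritic cell genes 3 of 8 fell and 1 rose. Among 10 neutrophil genes only 4 had enough counts to be tested, with no call, and Ly6g, Mpo and Camp had a median of 0 CPM. In C57BL/6J females the summed endothelial genes lay between 193 and 285 CPM on control and between 215 and 330 CPM on low isoleucine, and the summed hepatocyte genes between 73321 and 108972 CPM and between 95058 and 125885 CPM. Medians of the other leukocyte lists were below 0 in that class, as those of the macrophage genes were. They were -0.59 for dendritic cells (2 of 8 fell and 1 rose, 7 of 8 below 0), -0.52 for T and natural killer cells (1 of 10 fell, 9 below 0), -0.40 for B cells (0 of 6 called, 5 below 0) and -0.41 for neutrophils (0 of 4 called, 4 below 0). The summed dendritic cell genes lay between 66.7 and 147 CPM on control and between 47.1 and 67.3 CPM on low isoleucine. Over the 72 libraries Bst2 had the highest median of that list (62.9 CPM), followed by Zbtb46 (6.02 CPM), so the sum mostly reflects Bst2. In C57BL/6J males the medians were 0.14 for dendritic cells, 0.44 for T and natural killer cells, -0.90 for B cells and -0.54 for neutrophils. The part of these cells, and of hepatocyte RNA, in the lower level of the macrophage genes was not tested.

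Other genes of the same cells and pathway moved in step with the members or did not, by list. Of 30 further macrophage genes 19 fell and 1 rose with low isoleucine in the mean (median -0.34). The 4 with the lowest adjusted p were the actin-bundling protein Lcp1 (-0.36 ± 0.05), the high-affinity IgG receptor Fcgr1 (-0.72 ± 0.15), the membrane protein Ms4a7 (-1.27 ± 0.26) and the prostaglandin-degrading enzyme Hpgd (-0.53 ± 0.11). Lcp1 was called lower in both sexes of DBA/2J, at -0.45 in females and -0.30 in males. Of 20 genes of macrophage lineage and niche 3 rose and 4 fell (median -0.02), among them Csf2rb (-0.51) and Csf2ra (-0.55), the receptor chains for the growth factor GM-CSF. Bmp10, a ligand of the liver niche, rose (0.38), and so did Id1, a target of that signal (0.91). Of 23 genes of lysosome and lipid handling 5 rose and 5 fell (median 0.00), with the proteases Ctsb (-0.36) and Ctsl (0.45) in opposite directions, the phosphatidylserine-binding protein Anxa5 at -0.45 and lipoprotein lipase, Lpl, at 0.88. All of these lists were drawn up with earlier results of these data known.

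High isoleucine was compared with control in the same way. No member passed the threshold in the mean of the 4 classes by edgeR, DESeq2 or limma voom, beside 0% of all tested genes by edgeR in each direction, and 1 member was higher and 1 lower at an unadjusted p under 0.05. The median log2 fold change of the members was 0.04. None passed in C57BL/6J females (0% of all tested genes in each direction), DBA/2J females (0.00669% higher and 0% lower) or DBA/2J males (0.0134% higher and 0% lower) by any of the 3 tools, and at an unadjusted p under 0.05 there were 4 lower in C57BL/6J females, 2 higher and 1 lower in DBA/2J females and 0 in DBA/2J males. Shares of all tested genes at an unadjusted p were not counted for these comparisons. Ccr2 rose in C57BL/6J males, the single call, beside 1.89% of all tested genes that rose and 2.61% that fell. It was at 0.847, 1.15 and 2.68 CPM on control and at 1.20, 2.38 and 3.74 CPM on high isoleucine, with overlap (0.85 ± 0.26, adjusted p = 0.048 by edgeR). That call was lost in 5 of 7 fits that left out a library (without control library 2, 3, 4, 5 or 6) and when only that class was fitted. Libraries of C57BL/6J males on high isoleucine were spread widely, with a summed level of 374, 687 and 1359 CPM for the 33 genes.

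High was also compared with low isoleucine in the mean of the 4 classes. Of the 33 members 26 were higher on high isoleucine and 2 were lower, beside 22.9% and 20.7% of all tested genes, with a median log2 fold change of 0.52. Mpeg1 again had the lowest adjusted p (1.06 ± 0.12, adjusted p = 5.1e-11 by edgeR). All 9 general macrophage genes, all 3 C1q genes, 6 of 7 Kupffer cell genes, 5 of 10 lipid-associated genes and 3 of 4 recruited monocyte genes were higher. Timd4 (0.61 ± 0.19), Marco (1.04 ± 0.34) and Ly6c2 (0.62 ± 0.22) passed here. The 2 that were lower were Cd163 (-0.41 ± 0.17) and Cd9 (-0.24 ± 0.10), and neither was called when genes of low count were not filtered out. In 25 fits a low library, or C57BL/6J female control library 4, was left out, and no high library was. Of these 25 fits the call was lost in 13 for Cd163, 8 for Cd9, 15 for Trem2 (0.51 ± 0.21) and 14 for Itgax (0.53 ± 0.22). With the title number as a block 16 were higher and 1 was lower (limma voom).

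Strain was compared on the control diet, as the mean over both sexes. Of the 33 genes 25 were lower in DBA/2J than in C57BL/6J and 1 was higher, beside 22.5% and 22.9% of all tested genes, and the median log2 difference was -0.87. The lipid-associated genes were lower for 8 of 10, the general macrophage genes for 8 of 9, the C1q genes for 3 of 3, the Kupffer cell genes for 4 of 7 and the recruited monocyte genes for 2 of 4. Mpeg1 was the exception in the other direction, higher in DBA/2J with a log2 difference of 0.55 ± 0.16 (adjusted p = 0.0049 by edgeR). The other 7 did not pass the threshold: Cd163 (0.03), Cd9 (0.07), Fabp5 (0.13), Timd4 (-0.31), Cd5l (-0.41), Itgam (-0.61) and Ly6c2 (-0.70). Markers of other cells were also lower in DBA/2J, with 5 of 8 dendritic cell genes (median -1.35), 7 of 10 T and natural killer cell genes (-1.09, 1 higher), 3 of 6 B cell genes (-0.61), 7 of 10 stellate cell genes (-0.54) and 5 of 7 cholangiocyte genes (-0.46). Endothelial genes had 1 of 9 lower and 1 higher (-0.14) and hepatocyte genes 3 of 10 lower and 2 higher (0.01). Neutrophil genes had 1 of 4 lower (-0.28) and erythroid genes 2 of 5 lower and 3 higher (0.38). The part of these cells in the strain difference of the macrophage genes was not tested. The reads were aligned to a genome of the C57BL/6J strain, and the part of sequence differences between the strains in these values was not tested.

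Gpnmb, Folr2 and Marco had the largest strain differences, and on the control diet the strains did not overlap in Folr2 and Gpnmb and overlapped in Marco. Folr2 (chr7:101839988-101857194, minus strand), a receptor of tissue-resident macrophages, was at 3.47, 10.4 and 19.1 CPM in C57BL/6J female controls and 3.10, 6.20 and 9.50 CPM in male controls. In DBA/2J controls it was at 0.174, 0.271 and 0.335 CPM in females and 0, 0.220 and 0.420 CPM in males, a log2 difference of -5.04 ± 0.30 (adjusted p = 1.6e-23 by edgeR). On the other diets its highest DBA/2J library was at 0.420 CPM and its lowest C57BL/6J library at 1.60 CPM, so the strains did not overlap in any of the 72 libraries. Exons of Folr2 overlap those of the antisense gene Gm10602 by 975 bases.

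Gpnmb (chr6:49036546-49070929, plus strand) was at 0.291, 0.979 and 13.7 CPM in C57BL/6J female controls and 0.247, 0.934 and 8.34 CPM in male controls. In DBA/2J controls it was at 0.0419, 0.129 and 0.227 CPM in females and 0, 0.0518 and 0.111 CPM in males, which rests on 16 and 6 counts over 6 libraries. Its log2 difference was -5.07 ± 0.61, and between -5.24 and -4.18 as single libraries were left out. DBA/2J mice are known to carry a premature stop codon in Gpnmb. Marco was at 8.10, 9.68 and 81.3 CPM in C57BL/6J female controls, 5.96, 7.20 and 15.6 CPM in C57BL/6J males, 1.31, 2.72 and 6.27 CPM in DBA/2J females and 0.331, 0.782 and 1.33 CPM in DBA/2J males. Its log2 difference between strains was -3.22 ± 0.51, and female control library 6 of C57BL/6J held the 81.3 CPM.

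Further members were lower in DBA/2J by more than the median. Trem2 was lower by a log2 difference of -2.71, Fcer1g, the shared gamma chain of Fc receptors, of -2.23, Itgax of -2.07 and Clec7a of -1.80. Fcer1g was at 10.6, 12.0 and 32.1 CPM in C57BL/6J female controls and at 1.70, 2.36 and 3.45 CPM in DBA/2J female controls, without overlap. Its partner adaptor Tyrobp had a smaller difference (-0.79). Clec7a is annotated as a gene that is intact in some strains and not in others. Mmp12 (-1.70), Spp1 (-1.64), Cd63 (-1.42), Cx3cr1 (-1.31) and Adgre1 (-1.28) were also lower. The strain difference of Mmp12 lay between -2.23 (without DBA/2J female control library 3) and -1.11 (without C57BL/6J male control library 1), with -1.14 without C57BL/6J female control library 4, and it was past the threshold in all 24 fits that left out a library.

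**Figure D4:**
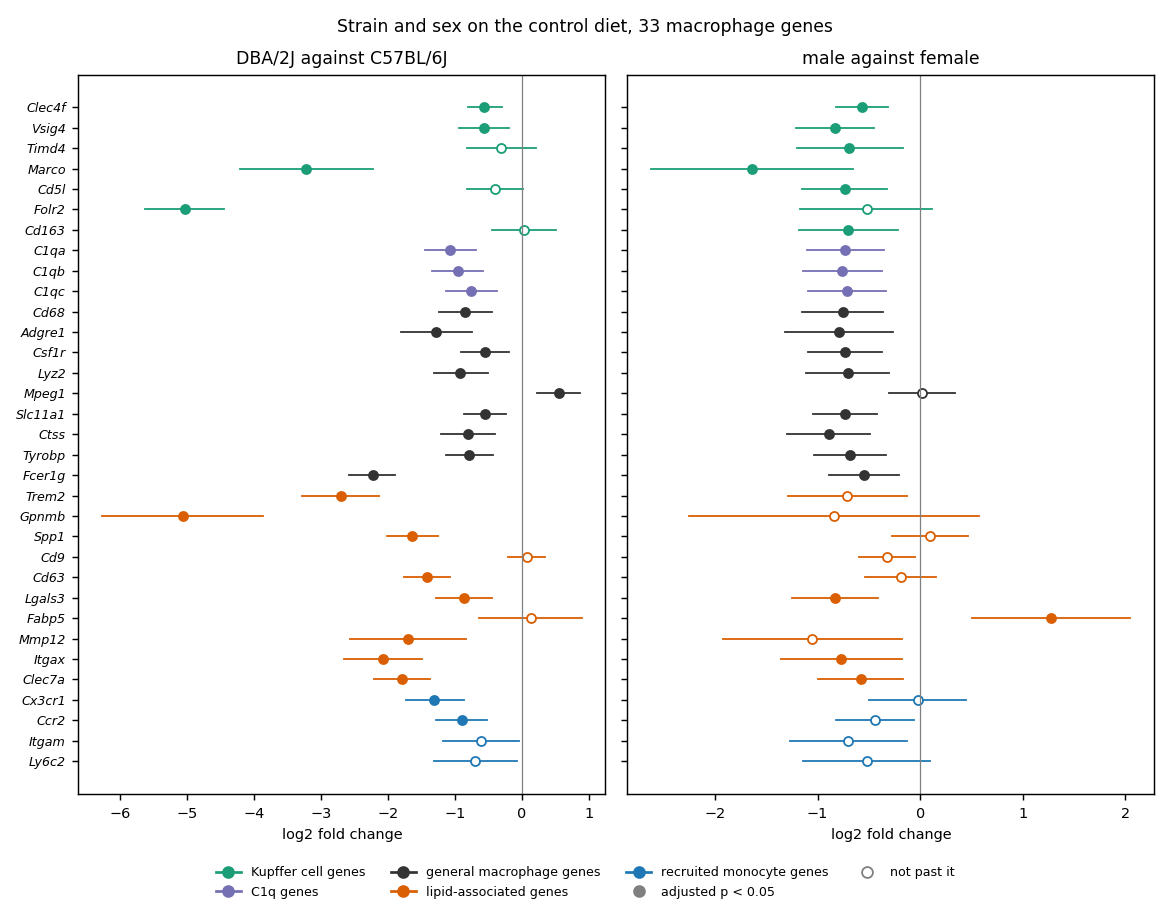
Log2 fold change of DBA/2J against C57BL/6J (left) and of males against females (right) on the control diet for each of the 33 genes (vertical axis), with 95% confidence intervals; filled points passed the adjusted p threshold and colour gives the role. Folr2 (-5.04) and Gpnmb (-5.07) lie farthest to the left for strain, and Fabp5 (1.28) is the one filled point to the right for sex.

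**Figure D5:**
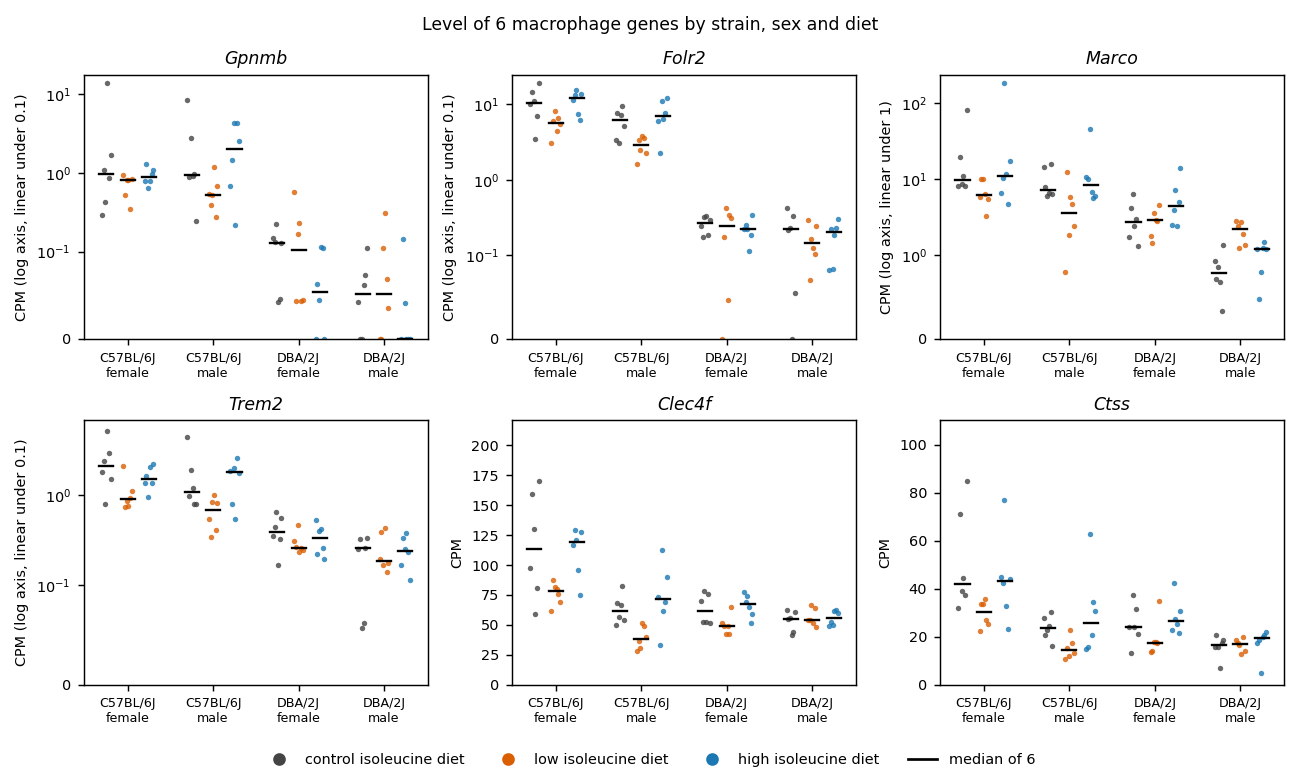
Level in CPM (vertical axes; log axes for Gpnmb, Folr2, Marco and Trem2, linear near 0) of 6 macrophage genes in each library, by strain and sex (horizontal axis) and diet (colour), with medians of 6 as bars. Folr2 lies at or below 0.420 CPM in every DBA/2J library and at or above 1.60 CPM in every C57BL/6J library.

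Sex was compared on the control diet, as the mean over both strains. In males 20 members were lower and 1 was higher than in females, beside 12.9% and 13.3% of all tested genes, with a median log2 difference of -0.70. The 3 C1q genes, 6 of 7 Kupffer cell genes and 8 of 9 general macrophage genes were lower, while 3 of 10 lipid-associated genes and 0 of 4 recruited monocyte genes were. Of 24 fits that left out a control library, the call was lost in 17 for Itgax, 15 for Timd4 and 5 for Clec7a. It was lost in 2 for Cd163 and in 1 each for Adgre1, Fcer1g and Marco. At an unadjusted p under 0.05, 25 members were lower in males, with the share of all tested genes not counted. With the title number as a block 13 were lower and 1 was higher, beside 17.5% of all tested genes called in either direction (limma voom). Markers of several other cells were lower in males as well, with 8 of 10 T and natural killer cell genes (median -1.46, 1 higher), 4 of 6 B cell genes (-0.86), 3 of 4 neutrophil genes (-0.71), 6 of 9 endothelial genes (-0.50) and 7 of 10 stellate cell genes (-0.35), while 0 of 10 hepatocyte genes were lower and 1 was higher (0.06). Dendritic cell genes had 1 of 8 lower (-0.51), cholangiocyte genes 1 of 7 lower and 2 higher (-0.13), and erythroid genes 0 of 5 lower and 1 higher (0.24). The part of these cells in the sex difference of the macrophage genes was not tested. Marco had the largest log2 difference, -1.64 ± 0.50, which was -1.11 and not past the threshold without C57BL/6J female control library 6 (adjusted p = 0.081 by edgeR). Ctss, the lysosomal protease cathepsin S, was lower by -0.89 ± 0.21 on the log2 scale, with 32.1, 41.9 and 84.7 CPM in C57BL/6J females against 16.3, 23.6 and 30.1 CPM in males, and 13.0, 24.0 and 37.3 CPM in DBA/2J females against 7.03, 16.6 and 20.5 CPM in males. The sexes of C57BL/6J did not overlap in Ctss and those of DBA/2J did.

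Fabp5 was the single member higher in males (1.28 ± 0.39, adjusted p = 0.012 by edgeR). It was at 3.38, 7.30 and 10.1 CPM in C57BL/6J females and at 14.3, 21.8 and 52.8 CPM in C57BL/6J males, without overlap. In DBA/2J it was at 4.79, 12.6 and 21.6 CPM in females and 7.68, 19.1 and 39.1 CPM in males, with overlap. Mpeg1 (0.02) and Cx3cr1 (-0.02) were close to 0 between the sexes.

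How the members varied together among libraries of the same group was described by Pearson's r of log2 CPM with each group's mean removed, over 72 libraries that share depth and tissue composition. Ctss followed the mean of the other members most closely (r = 0.92), then Cd5l (0.91), Csf1r (0.88) and Cd68 (0.87). Lgals3 (0.81) and Clec7a (0.77) were the lipid-associated genes closest to it. Trem2 and Cd63 (both 0.14), Cd9 (0.11), Spp1 (0.07) and Fabp5 (-0.17) were least like it. The 3 C1q genes had a median pairwise r of 0.95, Kupffer cell genes among themselves of 0.64, general macrophage genes of 0.73 and lipid-associated genes of 0.34. Between Kupffer cell and lipid-associated genes the median pairwise r was -0.04, and between general macrophage and recruited monocyte genes it was 0.37.

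The 10 other genes most like the mean of the members, by the same measure, were Axl (r = 0.90), Cybb (0.89), Itgb2 (0.88), Msn and Treml4 (both 0.87), Itgal, Lgmn, Laptm5 and Clec12a (all 0.86) and Lair1 (0.85). Axl is a receptor for apoptotic cells, Cybb the catalytic subunit of the phagocyte oxidase and Itgb2 the shared beta chain of leukocyte integrins. Their mean levels over the 72 libraries ran from 2.28 CPM for Lair1 to 45.4 CPM for Lgmn, a lysosomal protease.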

How the data were processed

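Liver RNA-seq libraries (72) were grouped by the strain, sex and diet fields of the labels into 12 groups of 6. The authors deposited expected counts per Ensembl gene, made from reads aligned to GRCm38.p5 per the labels' protocols; no aligner or counter is given in the sources used here. R 3.4.3, limma and edgeR appear in the submitters' processing notes, without a role. An incomplete line of the table was left out. Of the nonzero expected counts the authors deposited, 9.56% were not whole, and counts were rounded. Per the labels, library preparation is described both as polyA-enriched and by a total RNA guide.

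Genes were filtered with filterByExpr by group, scaled by TMM (0.84 to 1.14) and tested with edgeR 4.0.16 (quasi-likelihood, robust, R 4.3.3) in 1 fit of all libraries, with Benjamini-Hochberg adjustment over 14954 genes and a threshold of 0.05; the common biological coefficient of variation was 0.21. CPM are counts per 1000000 of the TMM-scaled library size. Alternatives used RLE size factors, DESeq2 1.42.0, limma 3.58.1 voom, no filter, summed or blocked libraries of 1 title number, each class alone, and leaving out libraries. A fit of simulated counts was checked for recovery of known changes. Genes were matched to GENCODE symbols by identifier, and promoters to RefSeq by symbol. The members, the gene lists and the tests were chosen with earlier results of these data known. All 33 members may be named, and library values are given for the 2 members of each role with the lowest adjusted p for low isoleucine in the mean, the 3 with the largest differences for strain and for sex, and every member past the threshold for an interaction. Of the macrophage, lineage and niche, and lysosome and lipid lists the 4 genes with the lowest adjusted p are named. Values of other members and markers were added after they were seen. Cell type lists covered cholangiocytes, dendritic cells, neutrophils, T and natural killer cells, B cells, endothelium, stellate cells, hepatocytes and erythroid cells (1 of 5 tested erythroid genes, Alas2, fell with low isoleucine in the mean).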

Additional observations from a re-analysis of the deposited data

Results flagged for a closer look

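In 276 sets of 6 libraries, 43 held a highest or lowest library set apart from the others by more than Dixon's 95% critical share of the range (15.6%), where chance flags about 1 in 20 groups of normally distributed values. The CPM were not transformed and the genes were named by their results in these data, so the share flagged cannot be set against that rate. The sets are not independent, since the same libraries recur across genes.

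C57BL/6J female control library 4 was set apart in Gpnmb (13.7 CPM), Mmp12 (11.8 CPM), Cd9 (23.4 CPM) and Cd63 (22.2 CPM), and library 6 in Lyz2 (156 CPM) and Marco (81.3 CPM). C57BL/6J male control library 1 was set apart in Gpnmb (8.34 CPM), Mmp12 (4.13 CPM), Trem2 (4.35 CPM), Cx3cr1 (1.84 CPM) and Cd63 (14.8 CPM). DBA/2J female low library 6 stood above the rest in the sum of all members (694 CPM), in the Kupffer cell sum (213 CPM) and the lipid-associated sum (164 CPM), and in Fabp5 (94.2 CPM), Cd9 (44.4 CPM) and Ctss (34.8 CPM). On high isoleucine, C57BL/6J female library 3 stood apart in the Kupffer cell sum (717 CPM), Cd5l (290 CPM), Marco (184 CPM) and Mpeg1 (137 CPM), and C57BL/6J male library 3 in the general macrophage sum (484 CPM) and Marco (45.5 CPM).

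DBA/2J male high library 3 lay below the other 5 in the sum of all members (324 CPM), the general macrophage sum (101 CPM), the recruited monocyte sum (0.830 CPM) and Ctss (4.81 CPM), and above them in Cd9 (19.8 CPM). DBA/2J male control library 4 lay below the rest in Ctss (7.03 CPM) and Cd9 (8.44 CPM), and low library 6 in the sum of all members (382 CPM). Single values set apart in DBA/2J females were the lipid-associated sum and Fabp5 in high library 1 (155 and 88.8 CPM), Mpeg1 in high library 2 (207 CPM), Lyz2 in high library 6 (68.8 CPM), Mmp12 in control library 3 (2.54 CPM), Trem2 in low library 3 (0.462 CPM) and Gpnmb in low library 1 (0.568 CPM). In DBA/2J males they were Lyz2 in low library 1 (58.1 CPM), Mmp12 and Gpnmb in low library 4 (1.23 and 0.308 CPM) and Gpnmb in high library 2 (0.146 CPM). Trem2 in C57BL/6J female low library 1 (2.10 CPM) completes the set.

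The effect of low isoleucine differed between strains, DBA/2J minus C57BL/6J on the log2 scale, for Fabp5 (2.32), Cd9 (1.31), Lyz2 (1.05) and Cd63 (0.88), and between sexes, male minus female, for Cd9 (0.71), by edgeR's interaction tests.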

How the results depend on the processing

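Counts of the 33 members past the threshold were within 1.5 times of those reported under RLE size factors in every comparison. With the title number as a block (limma voom, consensus correlation 0.24), they were 13 for low isoleucine in the mean, 11 in C57BL/6J females, 0 in C57BL/6J males, 0 in DBA/2J females, 17 for high against low, 1 for the difference between strains and 0 for that between sexes. limma voom without the block, added after seeing the data, gave 22, 19, 7, 1, 24, 3 and 1 in the same order. With libraries of 1 title number summed the counts were 17 in C57BL/6J females, 4 in C57BL/6J males, 0 in DBA/2J females, 0 for high isoleucine in C57BL/6J males, 1 for the strain and 0 for the sex difference. Fitting the class alone gave 16 for low isoleucine in C57BL/6J females, and 0 for low and 0 for high isoleucine in C57BL/6J males. Of the genes tested in those fits 21.5%, 2.47% and 1.44% were called, in the same order. Without the low count filter there were 0 for high isoleucine in C57BL/6J males and 2 for the strain difference, and DESeq2 and voom without the block gave 2 and 3 for the former. The shares of all genes tested were 2.41% and 0.661% without the filter, and 5.70% and 4.49% by DESeq2 and voom. Beyond fewer samples in the summed and class fits, the cause was not tested.

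Leaving out 1 library gave 21 to 26 for low isoleucine in the mean, 11 to 25 in C57BL/6J females, 1 to 11 in C57BL/6J males, 0 to 1 in DBA/2J females and 2 to 3 in DBA/2J males. High isoleucine gave 0 to 3 in C57BL/6J males and 0 to 0 in the mean and in each other class, with libraries of the high diet not left out. High against low, with high libraries again not left out, gave 24 to 28. The strain difference of the low effect gave 1 to 4 (1 without DBA/2J female low library 6) and the sex difference 1 to 2 (2 without C57BL/6J male control library 1). Strain gave 26 to 27 and sex 17 to 24. In C57BL/6J males the count was 2 without control library 5 and 3 without control library 4 or low library 2, 3 or 6. For high isoleucine in that class it was 3 without control library 1 and 2 without C57BL/6J female control library 4. No call of a single gene reversed. Of 141 gene calls, 56 were lost with the block, 26 with summed libraries, 20 with voom, 16 without the filter and 0 with RLE size factors or DESeq2. Fitting the class alone lost 17 of the 36 gene calls it covers.

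Depth limits Gpnmb and Folr2 in DBA/2J mice, where Gpnmb was at 0 in 10 libraries.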
